A study of Mus musculus with 88 samples.

Results

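The genes for cytosolic ribosomal proteins were followed in the frontal cortex of mice of 8 genotypes. The set holds the genes named Rpl or Rps with a number, together with Rplp0, Rplp1, Rplp2 and Rpsa, at a mean of at least 1 CPM, a unit in which each library's gene reads add up to the same total. Of 74 such symbols none fell below this minimum, and Rps9 and Rpl28 were set apart because their level follows the APOE line of the mice, which left 72 genes of the 14451 in the table. The small (40S) subunit accounts for 28 and the large (60S) subunit for 44 of them. By the GENCODE annotation of GRCm38, 69 are protein-coding and 3 (Rpl32l, Rpl6l and Rps4l) are annotated as pseudogenes, so those 3 are not annotated as coding for a ribosomal protein.

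Cortical RNA was sequenced from 88 mice at an age of 6.5 months, 1 library per mouse. All mice carried human APOE3 or APOE4 in place of the mouse gene (targeted replacement), with or without the human mutant APPswe and PSEN1dE9 transgenes of the APP/PS1dE9 line, both under the mouse prion promoter, and with intact Trem2 or the Trem2em2Adiuj knockout allele, carried in the germline and so not limited to microglia. The groups were 16 APP/E4/Trem2ko, 14 APP/E3/Trem2ko, 14 APP/E4, 14 APP/E3, 8 E4/Trem2ko, 8 E3/Trem2ko, 6 E4 and 8 E3 mice. Each genotype was balanced by sex apart from E4 (4 female and 2 male mice). In a bulk library, fewer cells of a type and less RNA per cell cannot be told apart.

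The ribosome translates messenger RNA in every cell. Its small subunit reads the message and its large subunit joins the amino acids, and each ribosomal protein is normally built into the particle in fixed proportion to the others. Vertebrate messages for these proteins begin with a C followed by a run of pyrimidines, the 5' terminal oligopyrimidine or TOP motif, through which mTORC1 and LARP1 set their translation together. Ribosomal protein genes also left many processed copies in the mouse genome, so short reads from them often match several places.

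Libraries held 41.0 to 94.9 M (mega) reads in genes (median 49.5 M), and 1 read was worth 0.0105 to 0.0242 CPM. Trem2 reads were at 1.12 to 4.65 CPM in Trem2ko mice and at 7.18 to 19.8 CPM in mice with intact Trem2. The keratins Krt13, Krt4 and Krt6a (3 of 3 measured), markers of stratified epithelium, had a sum of 1 CPM or more in 10 of 16 APP/E4/Trem2ko, 10 of 14 APP/E4, 7 of 8 E4/Trem2ko and 4 of 6 E4 libraries and in none of the APOE3 libraries, where the highest sum was 0.247 CPM. Their summed level ranged up to 37.6 CPM in APP/E4/Trem2ko, 33.6 CPM in APP/E4, 20.9 CPM in E4/Trem2ko and 39.4 CPM in E4 mice. The ribosomal RNA precursor Rn45s had medians of 4104, 6289, 4592 and 4307 CPM in these APOE4 genotypes, against 1159, 1276, 1120 and 1115 CPM in APP/E3/Trem2ko, APP/E3, E3/Trem2ko and E3 mice. Albumin (Alb) reached 132 CPM in APP/E4 and 123 CPM in E4/Trem2ko mice and at most 2.32 CPM in APOE3 mice. Ttr, a choroid plexus marker, was under 100 CPM in 9 of 14 APP/E3/Trem2ko, 14 of 16 APP/E4/Trem2ko, 13 of 14 APP/E4 and 5 of 6 E4 libraries. In all other genotypes every library was under 100 CPM. The highest Ttr level was 2875 CPM, in an APP/E3/Trem2ko mouse. The part of these genes in the results below was not tested, apart from fits without the libraries with keratin reads, without those high in Alb and without those high in Ttr.

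Start sites show which of these genes have the TOP motif in the annotation. RefSeq (GRCm38.p6) gave a start site for 50 of the 72 genes. A C followed by at least 4 pyrimidines (C or T), beginning within 5 bases of the annotated start on the transcribed strand, was found in 24 of the 50 (48%), against 21.2% of 27025 genes in the same table and 18.3% of all windows. Counted downstream only, from the matching C nearest the start, the runs were 5 to 17 bases long (median 7.5). The windows hold the 15 bases before the start and 15 bases from the start on, 5' to 3', with the run in capitals. They belong to genes called as different between genotypes in the fit described below, chosen after their values were seen. Other such genes without a run, Rps19, Rps16, Rpl23 and Rpl26 among them, are not shown, so the choice does not reflect how common the run is. The calls of Rpl35a, Rps18 and Rplp2 did not hold without APP/E4/Trem2ko replicates 8 and 16, described below. Rps10, Rpl35a, Rpl35, Rps18, Rpl12 and Rplp2 have a run.
Rps10 (chr17:27635230-27635259, minus strand): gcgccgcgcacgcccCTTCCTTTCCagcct
Rpl35a (chr16:33056467-33056496, plus strand): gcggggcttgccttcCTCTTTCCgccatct
Rpl35 (chr2:39005117-39005146, minus strand): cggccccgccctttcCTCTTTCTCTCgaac
Rps18 (chr17:33955651-33955680, minus strand): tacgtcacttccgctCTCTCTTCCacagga
Rpl12 (chr2:32961697-32961726, plus strand): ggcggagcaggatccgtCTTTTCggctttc
Rplp2 (chr7:141447636-141447665, plus strand): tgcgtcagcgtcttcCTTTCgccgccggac
In Rps10, Rpl35a, Rpl35, Rps18 and Rplp2 the marked run begins on the start itself, since the matching C nearest the start was taken. Pyrimidines also lie directly before it in all of them, so the whole pyrimidine stretch begins before the annotated start. No such run was found at the annotated start of 4 other genes whose level differed between genotypes, shown for contrast.
Rplp0 (chr5:115559452-115559481, plus strand): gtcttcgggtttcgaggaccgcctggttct
Rpl11 (chr4:136053379-136053408, minus strand): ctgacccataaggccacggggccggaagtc
Rps15 (chr10:80292416-80292445, plus strand): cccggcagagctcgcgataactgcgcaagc
Rpl36a (chrX:134585639-134585668, plus strand): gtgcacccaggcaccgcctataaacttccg
No match says only that these letters are not near the annotated start, which may lie some bases from the one used. Rpl29, Rpl3 and Rpl21 are named only.

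The 72 genes together made up 2195 to 4135 CPM of a library, with a median of 2899 CPM or 0.292% of all CPM. Single genes spanned a wide range, from a mean of 1.18 to 323 CPM (median 10.2), and 29 lay under 5 CPM and 9 over 100 CPM. The 8 highest genes held 57.6% of the summed mean. Per kilobase of transcript the highest were Rplp1, a protein of the ribosomal stalk, at 349 CPM per kb, Rpl8, of the large-subunit core, at 342 CPM per kb, and Rps15, of the small-subunit head, at 326 CPM per kb. The lowest were Rpl5, which binds 5S rRNA, at 0.989 CPM per kb, Rps16 at 1.35 CPM per kb and Rps27a, made as a fusion with ubiquitin, at 1.52 CPM per kb. In no library did Rpl8 leave the range of 216 to 359 CPM, while Rpl5 ranged from 0.886 to 6.76 CPM, Rps16 from 0.521 to 8.44 CPM and Rps27a from 0.434 to 4.40 CPM.

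**Figure D1:**
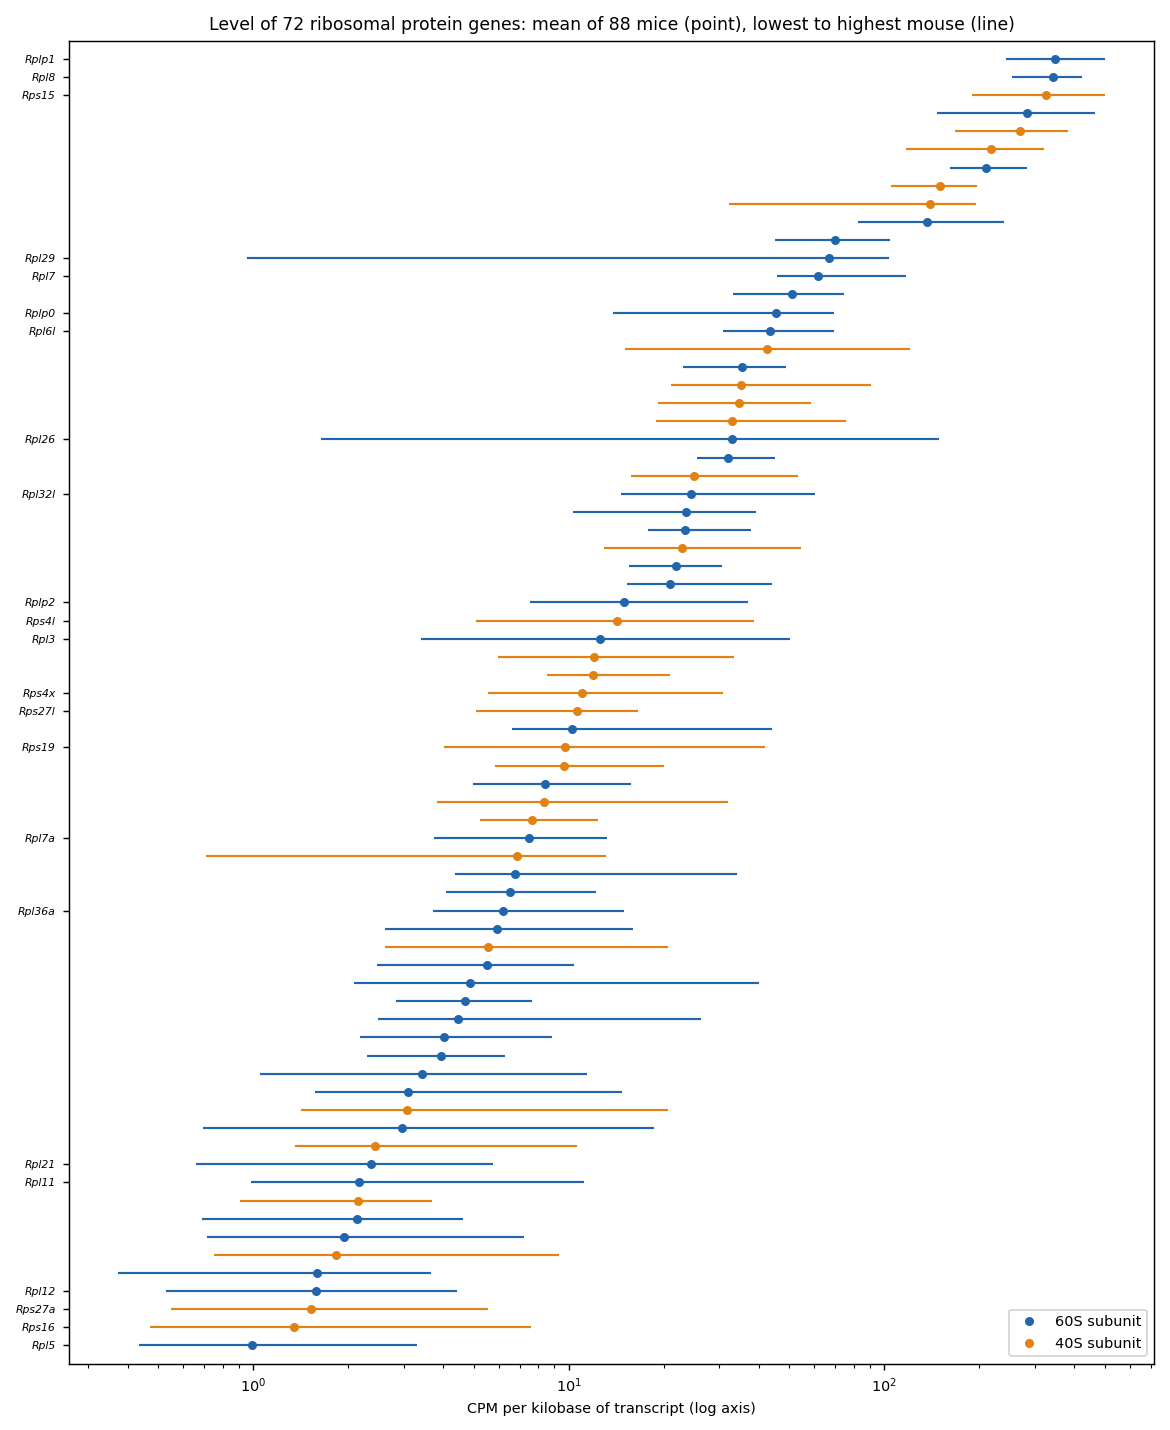
Level of each of the 72 ribosomal protein genes in CPM per kilobase of transcript (log axis), with names for the genes described in the text. Points give the mean of 88 mice, lines run from the lowest to the highest mouse, orange marks 40S and blue 60S genes. Means run from 0.989 CPM per kb for Rpl5 to 349 CPM per kb for Rplp1.

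Most of these proteins are built into the ribosome as a single copy, while the deposited levels of their genes were far from equal. The files do not state how reads with several matches were treated. As a description of how much of each gene could be told apart, the share of 50-base windows of its transcript found in the transcript of no other gene was computed: it ran from 1.35% (Rps27) to 100% with a median of 44.3%, and a gene shared windows with 0 to 123 other genes (median 11.5, most for Rpl7a). The 42 genes under 50% unique had a median of 4.62 CPM and the 30 others a median of 36.4 CPM. Across the 72 genes, unique share and level per kb had a Spearman correlation of 0.43, a description over genes that share libraries and processed copies. Levels and differences of genes with little unique sequence are uncertain for this reason, which holds for Rpl3 (14.4% unique), Rpl36a (14.5%) and Rpl29 (33.2%, windows shared with 84 other genes).

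The genes varied together from mouse to mouse. The first principal component of their scaled log2 levels held 46.1% of the variance with 69 of 72 genes of the same sign, and 40.7% with all 72 of the same sign when the APP/E4/Trem2ko libraries described next were left out. For each library, the median of the 72 log2 deviations from the gene's median over all mice was taken. This value was -0.16, 0.13 and 0.96 (lowest, median, highest) in APP/E4/Trem2ko mice, -0.23, -0.09 and 0.09 in APP/E3/Trem2ko, -0.45, 0.06 and 0.19 in APP/E4 and -0.26, -0.10 and 0.35 in APP/E3 mice. In non-APP mice the medians were 0.03 in E4/Trem2ko, 0.00 in E3/Trem2ko, -0.00 in E4 and -0.01 in E3. All genotypes overlapped.

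**Figure D2:**
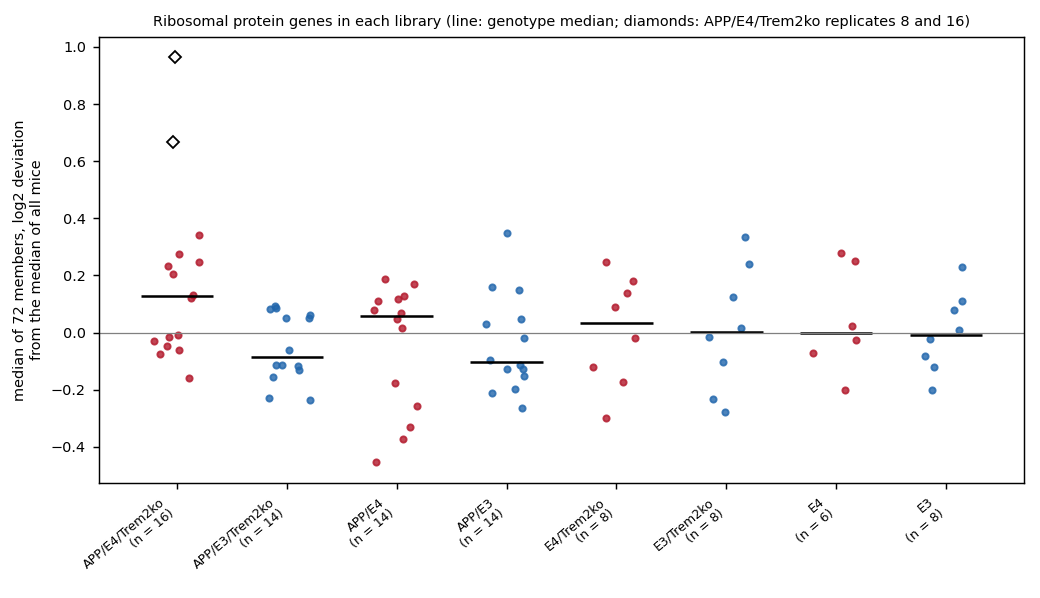
Median log2 deviation of the 72 ribosomal protein genes in each library from their medians over all mice. Points are mice (red for APOE4, blue for APOE3), lines are genotype medians, and open diamonds are APP/E4/Trem2ko replicates 8 and 16, at 0.67 and 0.96 against 0.35 in the next library.

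APP/E4/Trem2ko replicate 8, a female, and replicate 16, a male, stood apart from all other mice. Over all genes, the median absolute log2 deviation was 0.323 in replicate 8 and 0.307 in replicate 16, against 0.279 in the next library and a median of 0.145. Replicate 16 was also the deepest library, with 94.9 M reads, while replicate 8 had 53.5 M reads. Their labels differ in form from those of the other 86 mice, with a stray space in the title and an extra leading character in the column name. Their mouse numbers, E4132 and E4127, are the highest of those beginning with E, where the next is E3855. Whether they belong to a separate sequencing batch was not tested, since the labels do not give the batch. Of the 72 genes, 32 (44.4%) were above all of the other 86 mice in both libraries, against 11.9% of all genes tested. Rps2, of the 40S subunit, was the only one of the 72 below all others in both, at 32.1 and 40.7 CPM against 106 to 195 CPM, and 8.41% of all genes tested were below in both.

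The genes that differed most in these libraries are named after their values were seen. Rpl19, of the 60S subunit, had 22.6 CPM in replicate 8 and 30.1 CPM in replicate 16, against a median of 2.92 CPM in the other 86 mice. Rps10, of the small-subunit head, had 15.5 and 18.3 CPM, against 2.34 CPM. Rpl35a, one of the genes mutated in human Diamond-Blackfan anaemia, had 7.35 and 9.17 CPM, against 1.16 CPM. All of these were above every other mouse in both libraries. Rpl29 lay near the other mice, with 46.7 and 60.1 CPM, against 52.4 CPM. The choroid plexus list (Ttr, Kl and Clic6, 3 of 4 markers measured) summed to 1313 CPM in replicate 8 and to 9.69 CPM in replicate 16, against a group median of 19.1 CPM. This sum is not particular to replicate 8, since it reached 3024 CPM in APP/E3/Trem2ko mice. Keratins were at 0.0371 CPM in replicate 8 and 0 CPM in replicate 16. Slc17a7, a marker of cortical excitatory neurons, was at 1451 CPM in replicate 8 and 1407 CPM in replicate 16, against a group median of 2049.7 CPM. Replicate 16 was the lowest of its group, with 86 mice of the study above it. The lowest mouse of the study was at 906 CPM. The astrocyte list (Aqp4, Slc1a3 and Aldh1l1, 3 of 3 measured) summed to 946 CPM in replicate 8 and to 1241 CPM in replicate 16, the highest of all mice, against a group median of 750.5 CPM. The part of these differences in the ribosomal protein values was not tested. Counts over all 72 genes in comparisons with APP/E4/Trem2ko mice are given with and without both libraries. Counts split by subunit, level or pyrimidine run, and those of genes off chromosome 7, are given with both libraries only.

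**Figure D3:**
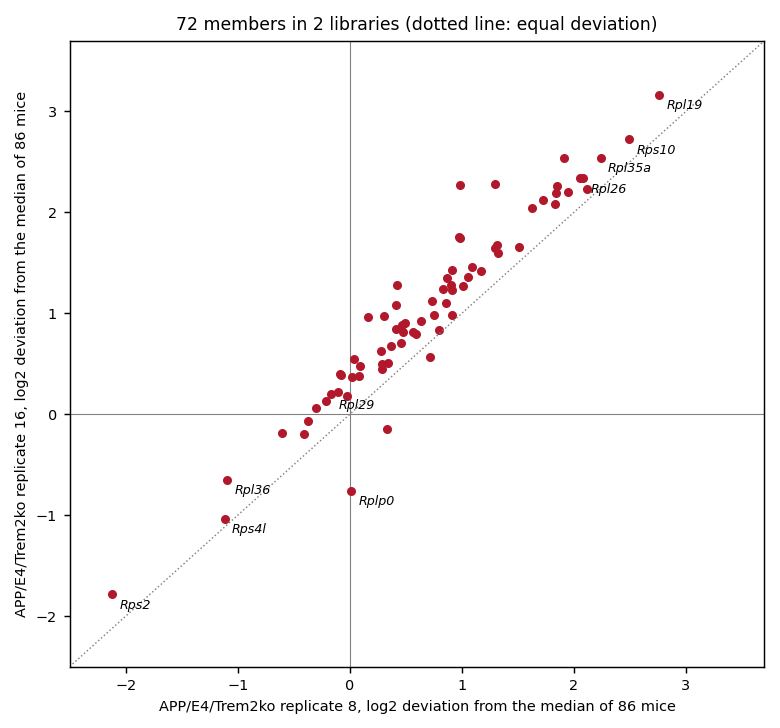
Log2 deviation of the 72 ribosomal protein genes from the median of the other 86 mice, in APP/E4/Trem2ko replicate 8 (horizontal) and replicate 16 (vertical). Each point is a gene, and the dotted line marks equal deviation. Most genes lie above 0 on both axes (59 in replicate 8, 64 in replicate 16), with Rpl19 and Rps10 at the upper end and Rps2 at the lower end.

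For the effect of genotype, all 88 mice entered 1 limma model of log2(CPM + 0.5) with terms for the 8 genotypes and for sex. A gene was called at a Benjamini-Hochberg adjusted p under 0.05 over the 14086 genes tested. Because fold changes are on the log2(CPM + 0.5) scale, they understate the change of genes near 1 CPM. The groups overlapped for all 52 calls in the genotype comparisons. In these, 38 of the 72 genes were called at least once and 34 in none. Neither the overlap nor calls in at least 1 comparison were counted over all genes. In APP/E4 against APP/E3 mice alone 33.6% of all genes tested were called, so these counts do not set the 72 apart.

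The first question was whether the APOE isoform mattered. In APP mice with intact Trem2, 6 of the 72 genes were higher and 6 lower with APP/E4 than with APP/E3, against 33.6% of all genes tested (10.9% higher, 22.7% lower). The median log2 fold change was 0.02 for the 72 genes and -0.04 for all genes. Without the libraries with keratin reads, 4 of 14 APP/E4 mice remained. Rpl36a was then the only one of these 12 calls left, and no other gene of the 72 was called. Of all genes, 15.9% were called in that fit. After correction of each library for transcript length and GC content, 35 of the 72 were higher and 1 lower, 7 of them among the first 12, with a median of 0.27 and 22.7% of all genes called. In the uncorrected fit all 6 genes that were higher belong to the 60S subunit, and the lower ones were 4 of the 40S and 2 of the 60S subunit.

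Between E4 and E3 mice 1 of the 72 genes was lower and none higher, where 7.72% of all genes were called (1.72% higher, 6.01% lower). Between E4/Trem2ko and E3/Trem2ko mice 1 of the 72 was lower, the stalk protein Rplp0, where 6.21% of all genes were called (1.53% higher, 4.68% lower).

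Rplp0, the base of the ribosomal stalk (chromosome 5, 115559467 to 115563727), was called lower in APOE4 mice in 3 of the 4 APOE comparisons. It had 18.7, 52.1 and 94.3 CPM (lowest, median, highest) in APP/E4/Trem2ko mice, against 63.4, 72.9 and 84.0 CPM in APP/E3/Trem2ko mice. Here 12 of 16 APP/E4/Trem2ko mice were below every APP/E3/Trem2ko mouse and the log2 fold change was -0.74 (SE 0.15, limma adjusted p = 0.000821), and -0.77 (adjusted p = 0.000776) without replicates 8 and 16. In E4/Trem2ko mice it had 21.7, 44.6 and 77.8 CPM, against 65.8, 69.6 and 86.6 CPM in E3/Trem2ko mice, with 7 of 8 below every E3/Trem2ko mouse (log2 fold change -0.88, SE 0.20, limma adjusted p = 0.00493). In APP/E4 mice it had 41.4, 53.8 and 83.3 CPM, against 60.1, 72.3 and 87.1 CPM in APP/E3 mice (log2 fold change -0.43, limma adjusted p = 0.0211). Between E4 and E3 mice its log2 fold change was -0.59 without a call (limma adjusted p = 0.0758). The spread was wider in APOE4 mice, with an SD of 22.6 CPM in APP/E4/Trem2ko and 6.85 CPM in APP/E3/Trem2ko mice. Without the libraries with keratin reads, -0.64 (adjusted p = 0.000248) remained called in the APP/Trem2ko comparison and -0.24 (adjusted p = 0.173) in APP mice with intact Trem2 was not. That fit keeps 6 of 16 APP/E4/Trem2ko mice, replicates 8 and 16 among them, and 4 of 14 APP/E4 mice. It keeps 1 of 8 E4/Trem2ko mice, so it cannot judge the call between E4/Trem2ko and E3/Trem2ko mice.

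Other genes were lower in APP/E4 mice as well. Rps27l, a paralog of Rps27 known in human cells as a p53 target, had 2.54, 4.41 and 6.79 CPM in APP/E4, against 4.93, 6.04 and 7.64 CPM in APP/E3 mice (log2 fold change -0.45, limma adjusted p = 0.000612). Rps15 had 95.1, 143 and 182 CPM, against 150 to 220 CPM with a median of 171 CPM (log2 fold change -0.33, limma adjusted p = 0.00175). Rpl12, of the stalk base, was also among the 6 (log2 fold change -0.30, limma adjusted p = 0.0458). Its call ended for 16 of 28 mice left out in turn. After correction of each library for transcript length and GC content, Rps15 changed sign, to 0.031 (adjusted p = 0.711).

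Rpl3, which lies at the peptidyl transferase centre (chromosome 15, 80077791 to 80091868), was higher with APOE4. It had 9.85, 20.6 and 67.8 CPM in APP/E4/Trem2ko mice, against 5.92, 8.42 and 20.5 CPM in APP/E3/Trem2ko mice, and all 16 were above the median of APP/E3/Trem2ko (log2 fold change 1.18, SE 0.24, limma adjusted p = 0.00133). Without replicates 8 and 16 the log2 fold change was 0.98 (adjusted p = 0.00886). In APP/E4 mice it had 8.58, 17.9 and 36.05 CPM, against 4.59, 9.56 and 41.7 CPM in APP/E3 mice (log2 fold change 0.67, limma adjusted p = 0.03). Rpl36a, on the X chromosome, had 1.93, 3.16 and 3.82 CPM in APP/E4, against 1.79, 2.36 and 2.87 CPM in APP/E3 mice (log2 fold change 0.31, limma adjusted p = 0.012). Rpl7 had 58.6, 75.3 and 101 CPM, against 54.1, 64.5 and 76.6 CPM (log2 fold change 0.22, limma adjusted p = 0.0152). Rpl26, near the tunnel exit, had 10.02 to 25.1 CPM, against 0.859 to 32.8 CPM, so that no APP/E4 mouse lay outside the APP/E3 range (log2 fold change 0.64, limma adjusted p = 0.0244).

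Rpl29, a small basic protein of the 60S subunit (chromosome 9, 106429454 to 106431568), had values in separate ranges. In 8 mice it was at 0.698 to 1.67 CPM (median 0.993). All 8 were among the 22 APOE3 mice with intact Trem2: 5 of 14 APP/E3 mice (2 females, 3 males) and 3 of 8 E3 mice (1 female, 2 males). A further 2 APP/E3 mice were at 24.7 and 32.3 CPM, and the other 78 mice lay at 35.4 to 76.1 CPM (median 53.1). No mouse of the other 6 genotypes was below 35.4 CPM. In the limma fit Rpl29 was called higher with APP/E4 than with APP/E3 (log2 fold change 1.81, SE 0.48, limma adjusted p = 0.00228) and in APP/E3/Trem2ko than in APP/E3 mice (log2 fold change 1.96, SE 0.48, limma adjusted p = 0.0394). On recovered reads neither passed: edgeR gave 0.67 (adjusted p = 0.184) and 0.76 (adjusted p = 0.854). The values of E4 and E3/Trem2ko over E3 mice were 1.91 and 1.85 without a call.

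**Figure D4:**
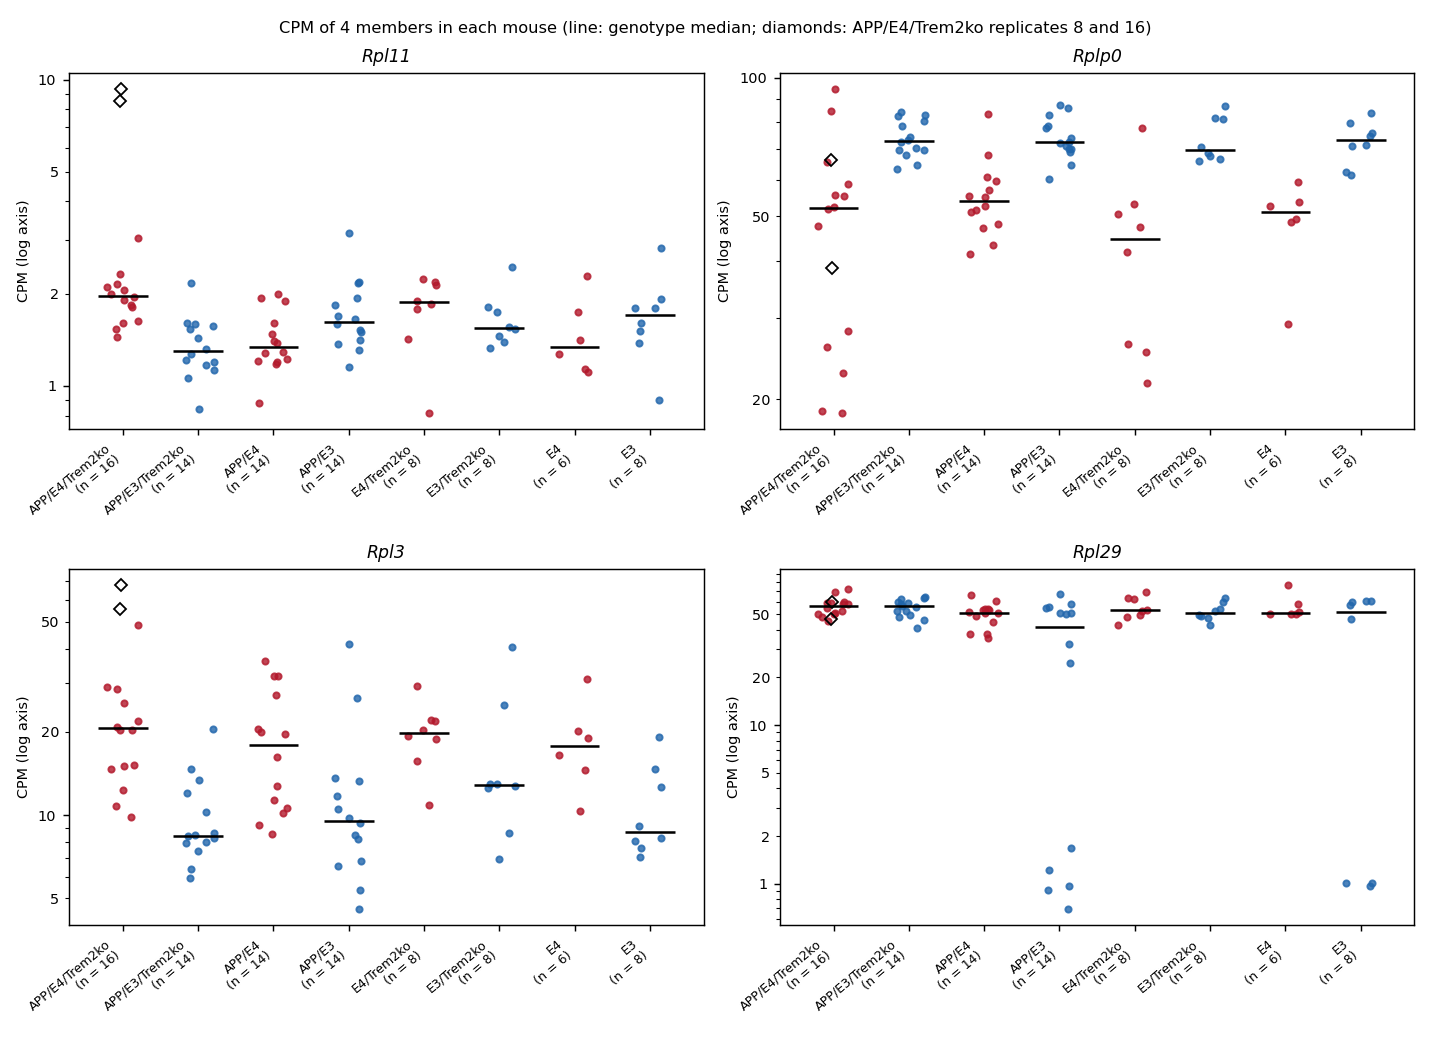
CPM (log axis) of Rpl11, Rplp0, Rpl3 and Rpl29 in each of the 88 mice by genotype. Points are mice (red for APOE4, blue for APOE3), lines are genotype medians, and open diamonds are APP/E4/Trem2ko replicates 8 and 16. Rpl11 has its highest median in APP/E4/Trem2ko mice (1.97 CPM, against 1.33 CPM in APP/E4 mice), and Rpl29 is at 0.698 to 1.67 CPM in 8 mice of APP/E3 and E3.

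In APP mice without Trem2, 21 of the 72 genes were higher and 1, Rplp0, was lower in APP/E4/Trem2ko than in APP/E3/Trem2ko mice. Of all genes tested, 4.46% were called (1.44% higher, 3.02% lower). The median log2 fold change was 0.24 for the 72 genes and -0.01 for all genes, and 60 of the 72 were above 0. Without replicates 8 and 16, 9 genes were higher and 1 lower, all 10 of them among the first 22, the median was 0.16 and 4.88% of all genes were called. Leaving out replicate 8 alone gave 14 calls and leaving out replicate 16 alone gave 13. Without the libraries high in Ttr 3 of the 72 were called (0.568% of all genes), and with only these genotypes fitted 5 were (1.1%). By subunit, with all libraries fitted, 7 of 28 genes of the 40S subunit were higher (median 0.20) and 14 of 44 of the 60S subunit (median 0.24). Genes with a mean under 10 CPM had a median of 0.34 with 14 of 36 called higher, and the 36 others a median of 0.14 with 7 higher and 1 lower.

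Beside Rpl3, the calls with the smallest p were Rpl21, Rpl11, Rps19 and Rpl36a. Rpl21 (chromosome 5, 146832890 to 146837032) had 3.65, 5.16 and 10.6 CPM in APP/E4/Trem2ko mice, against 1.22, 3.23 and 5.34 CPM in APP/E3/Trem2ko mice (log2 fold change 0.71, SE 0.15, limma adjusted p = 0.00123), and 0.61 (adjusted p = 0.00676) without replicates 8 and 16. All 16 APP/E4/Trem2ko mice were above the APP/E3/Trem2ko median. Rpl11, which forms a particle with Rpl5 and 5S rRNA that binds MDM2 (chromosome 4, 136028265 to 136053428), had 1.45, 1.97 and 9.29 CPM, against 0.842, 1.29 and 2.16 CPM (log2 fold change 0.64, SE 0.14, limma adjusted p = 0.0039), and 0.40 (adjusted p = 0.0146) without both libraries. Rps19, the gene most often mutated in human Diamond-Blackfan anaemia, had 3.65, 7.29 and 26.6 CPM, against 2.90, 4.41 and 6.94 CPM (log2 fold change 0.80, limma adjusted p = 0.00498), and 0.59 (adjusted p = 0.0262) without both. Rpl36a had 2.42, 3.43 and 7.21 CPM, against 1.98, 2.62 and 3.26 CPM (log2 fold change 0.42, limma adjusted p = 0.00545), and 0.31 (adjusted p = 0.027) without both. The remaining genes called higher had log2 fold changes of 0.25 to 0.80.

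Rpl3, Rpl36a and Rpl7 were called higher with APOE4 in APP mice of both Trem2 states. In Trem2ko mice without replicates 8 and 16, Rpl7 lost its call (0.19, adjusted p = 0.058). The APOE comparisons of non-APP mice gave a median over the 72 genes of 0.04 (E4 over E3) and 0.01 (E4/Trem2ko over E3/Trem2ko). Chromosome 7, which also carries the replaced Apoe locus, holds 11 of the 72 genes. Of these, 4 were called higher in APP/E4/Trem2ko than in APP/E3/Trem2ko mice, among them Rps16, Rps19 and Rplp2 at log2 fold changes of 0.59, 0.80 and 0.54, and 1 of the 11 was lower in APP/E4 against APP/E3 mice. Of the 61 genes on other chromosomes, 17 were higher in the first comparison (median 0.24, against 0.18 on chromosome 7). In the second, 6 of the 61 were higher and 5 lower. Without replicates 8 and 16, 2 of the 11 were called higher, and Rplp2 was not (0.47, adjusted p = 0.0865). Rps9 and Rpl28, both also on chromosome 7, were called in all 4 APOE comparisons, Rps9 at log2 fold changes of 0.47, 0.61, 0.48 and 0.38 and Rpl28 at -0.78, -0.98, -0.69 and -0.78 (APP, APP/Trem2ko, non-APP and Trem2ko mice, in this order).

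**Figure D5:**
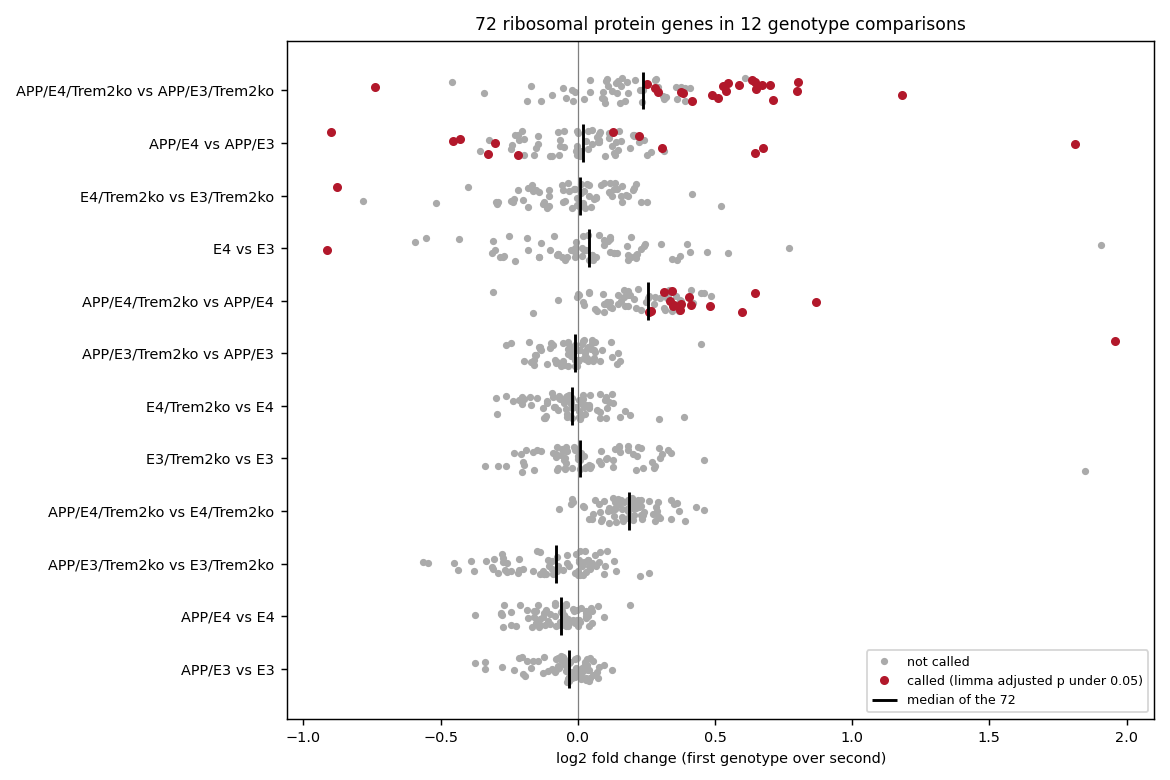
Log2 fold change (first genotype over second) of the 72 ribosomal protein genes in 12 genotype comparisons. Each point is a gene, red where limma's adjusted p was under 0.05, and the bar is the median of the 72. The medians are highest for APP/E4/Trem2ko over APP/E4 (0.26) and over APP/E3/Trem2ko (0.24), and red points are absent from 6 comparisons.

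The next question was the loss of Trem2. In APP/E4 mice 15 of the 72 genes were higher without Trem2 and none was lower, against 13.8% of all genes called (11.3% higher, 2.53% lower). The median log2 fold change was 0.26 for the 72 genes and 0.04 for all genes, and 68 of the 72 were above 0. Without replicates 8 and 16, 4 genes, Rpl11 and Rpl12 among them, were called higher, with a median of 0.15 over the 72 genes and 8.34% of all genes called. The count of 15 was 5 without replicate 16 alone, 9 without replicate 8 alone, 6 without APP/E4 replicate 3 and 8 without APP/E4 replicate 10. It was 1 without the libraries high in Ttr (1.23% of all genes) and 1 with only these genotypes fitted (0.532%). After correction for length and GC content, 1 gene was higher and 2 lower, the median was 0.04 for the 72 genes and -0.004 for all genes, and 3.78% of all genes were called.

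Rpl11 had 1.45, 1.97 and 9.29 CPM in APP/E4/Trem2ko mice, against 0.877, 1.33 and 1.99 CPM in APP/E4 mice. Of 16 APP/E4/Trem2ko mice, 8 were above every APP/E4 mouse and all were above the APP/E4 median (log2 fold change 0.60, SE 0.14, limma adjusted p = 0.00479). The value without replicates 8 and 16 was 0.35 (adjusted p = 0.0263). Rpl12 had 1.37, 1.97 and 5.51 CPM, against 0.654, 1.44 and 2.14 CPM (log2 fold change 0.48, limma adjusted p = 0.00508), and 0.35 (adjusted p = 0.0309) without both libraries. Rpl7a had 5.32, 7.19 and 12.1 CPM, against 3.41, 5.38 and 7.94 CPM (log2 fold change 0.32, limma adjusted p = 0.0166), and 0.23 (adjusted p = 0.0812) without both libraries.

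Rps15 and Rpl12 were lower in APP/E4 against APP/E3 mice and higher in APP/E4/Trem2ko than in APP/E4 mice. These comparisons share the APP/E4 mice. Leaving out single mice in turn ended the first call of Rpl12 for 16 of 28 mice. After the length and GC correction Rps15 changed sign in the first comparison, without a call. Rps15 lost the second call without replicates 8 and 16 (0.20, adjusted p = 0.1). Rps15 stood at 166 CPM (median) in APP/E4/Trem2ko, 176 CPM in APP/E3/Trem2ko, 143 CPM in APP/E4 and 171 CPM in APP/E3 mice. Rpl11, Rpl19 and Rpl23 were called higher in APP/E4/Trem2ko mice against both APP/E3/Trem2ko and APP/E4 mice, which likewise share a genotype. Of these, Rpl11 was called in both comparisons without replicates 8 and 16, Rpl23 in the first (0.30, adjusted p = 0.0486), and Rpl19 in neither.

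In the other genotypes the loss of Trem2 gave few or no calls among the 72 genes. Between APP/E3/Trem2ko and APP/E3 mice Rpl29 was the only call, with 0.319% of all genes called (0.206% higher, 0.114% lower) and a median of -0.01. In E3/Trem2ko against E3 mice none was called by limma, edgeR or DESeq2 (2.92% of all genes, 1.26% higher and 1.65% lower, 2 of the 72 genes at an unadjusted p under 0.05). In E4/Trem2ko against E4 mice none was called by any of them (0.0994% of all genes, 0.071% higher and 0.0284% lower, 1 at an unadjusted p under 0.05).

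Whether the effect of Trem2 loss differed between the APOE isoforms was tested as an interaction. In APP mice the difference between APP/E4 and APP/E3 lines was called above 0 for 2 of the 72 genes, among them Rpl11 (log2 difference 0.86, SE 0.21, limma adjusted p = 0.0377), and 0.369% of all genes were called (0.234% higher, 0.135% lower). The log2 difference of Rpl11 with Trem2 loss was 0.60 in the APOE4 line and -0.26, without a call, in the APOE3 line. Without replicates 8 and 16 the interaction was 0.61 (adjusted p = 0.0382) for Rpl11, the only call left. Leaving out single mice in turn ended the Rpl11 call for 10 of 58 mice. The median over the 72 genes was 0.26 with both libraries and 0.14 without them, against 0.03 for all genes in either case. In non-APP mice none of the 72 genes was called by limma, edgeR or DESeq2 (0.0142% of all genes, all higher, 1 at an unadjusted p under 0.05).

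The APP transgenes were compared within each APOE and Trem2 state, and none of the 72 genes was called in the 4 comparisons by limma, edgeR or DESeq2. Of all genes, 0.0781% were called in APP/E4/Trem2ko against E4/Trem2ko mice (0.0497% higher, 0.0284% lower) and 0.149% in APP/E3/Trem2ko against E3/Trem2ko mice (0.071% higher, 0.0781% lower). The shares were 0.0142% in APP/E4 against E4 mice (all higher) and 0.0213% in APP/E3 against E3 mice (0.0142% higher, 0.0071% lower). At an unadjusted p under 0.05 there were 10, 5, 0 and 1 of the 72 genes in these comparisons. In APP/E4/Trem2ko against E4/Trem2ko mice the median log2 fold change was 0.19 (0.02 for all genes) with 68 of 72 above 0, and 0.09 with 60 above 0 without replicates 8 and 16. Between females and males limma called none of the 72 genes (0.135% of all genes called, 0.0994% higher and 0.0355% lower, 1 of the 72 at an unadjusted p under 0.05, none by edgeR or DESeq2), with a median of -0.03.

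Symbols marked as paralogs were Rps27l, described above, and the following genes. Rpl32l, a processed pseudogene on chromosome 10, had 6.95, 11.2 and 24.0 CPM in APP/E4/Trem2ko mice, against 5.83, 8.03 and 10.3 CPM in APP/E3/Trem2ko mice (log2 fold change 0.49, limma adjusted p = 0.0206), and 0.37 (adjusted p = 0.077) without replicates 8 and 16. Rpl6l (26.8 to 60.3 CPM over all mice), Rps4l (4.01 to 30.4 CPM) and the X-linked Rps4x (5.40 to 30.1 CPM) were called in no comparison. Rps4l was low in replicates 8 and 16, at 4.53 and 4.82 CPM against a median of 10.4 CPM in the other 86 mice, where most of the set was high. The pyrimidine run shown above was counted among calls with replicates 8 and 16 included. Of the genes called higher in APP/E4/Trem2ko over APP/E3/Trem2ko mice, 9 of 15 with a RefSeq start had it, against 15 of 34 that were not called. Of those higher over APP/E4 mice, 3 of 12 had it, against 21 of 38.

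Other parts of the translation machinery, from lists chosen with earlier results of these data known, were counted in the same fit. Of 13 subunits of eIF3, which prepares the 40S subunit for initiation, 4 were higher and none lower with APP/E4 than with APP/E3, led by Eif3c (log2 fold change 0.25) and Eif3l (0.19). In APP/E4/Trem2ko against APP/E3/Trem2ko mice 4 were higher as well, led by Eif3m (0.26), and 2 without replicates 8 and 16. Of 7 measured ribosome-associated or ubiquitin-fused proteins, Fau (0.38), made as a fusion with the 40S protein eS30, and Npm1 (0.30) were higher in APP/E4/Trem2ko than in APP/E3/Trem2ko mice. Against APP/E4 mice 4 of the 7 were higher, among them Fau (0.33) and the nascent chain complex proteins Btf3 (0.32) and Naca (0.27). Without both libraries these counts were 1 of 7 and 0 of 7. After the length and GC correction, 10 eIF3 subunits were higher and 1 lower with APP/E4 than with APP/E3, 6 were higher in APP/E4/Trem2ko against APP/E3/Trem2ko mice, and the counts of the 7 were 3 and 0.

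Of 40 ribosome biogenesis factors, 5 were higher and 14 lower with APP/E4 than with APP/E3, with a median of -0.11. Ncl, nucleolin, was among the higher ones (log2 fold change 0.38), and Nop10 (-0.93) and Nhp2 (-0.49), which guide pseudouridine into rRNA, among the lower ones. Of 12 genes of RNA polymerase I and its factors, which transcribe rRNA, 2 were higher and 6 lower. In APP/E4/Trem2ko against APP/E4 mice, 11 of the 40 biogenesis factors were higher and none lower, Nop10 among them (0.55), and 4 of the 12 polymerase I genes. Without replicates 8 and 16 these were 9 of 40 and 3 of 12. After the length and GC correction, the biogenesis factors were 6 higher and 9 lower and the polymerase I genes 3 higher and 2 lower with APP/E4 than with APP/E3, and in APP/E4/Trem2ko against APP/E4 mice 2 of 40 and 1 of 12 were higher. Without the libraries with keratin reads, 1 biogenesis factor was higher and 9 lower with APP/E4 than with APP/E3, and 1 eIF3 subunit was higher. Of 13 genes that govern TOP messages through mTORC1, 7 were higher and 1 lower with APP/E4 than with APP/E3, among them Larp1 (0.24) and Tsc2 (0.26), and in APP/E4/Trem2ko against APP/E4 mice 3 were higher and 4 lower. In that comparison 2 were higher and 0 lower without replicates 8 and 16, and 1 higher and 0 lower after the length and GC correction. Of 8 elongation factors, Eef1g (0.32) was the only one called in APP/E4/Trem2ko against APP/E3/Trem2ko mice, and no elongation factor was without replicates 8 and 16. These counts stand against the shares of all genes called in the same comparisons, given above.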

How the data were processed

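The deposited table holds CPM per gene and mouse. Per the study's methods and the labels, the authors aligned reads to mm10 and counted them with featureCounts of Subread; the treatment of reads with several matches and the filter on genes are not given in the sources used here. Of 14497 rows, 46 repeats were removed. Values were whole multiples of 1 read in 100% of cases (tolerance 0.01 read), and the low values alone showed the step in 23 libraries. The recovered reads entered edgeR 4.0.16 and DESeq2 1.42.0 as alternatives.

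The main test was limma 3.58.1 (R 4.3.3, trend and robust) on log2(CPM + 0.5) for the 14086 genes whose mean reached 1 CPM, with genotype and sex, for 15 comparisons. The sequencing batch named in the study's methods is not in the labels and was not a term. Replicates are separate mice, numbered in accession order. Genome positions and transcripts came from GENCODE M21 (GRCm38, the build of mm10), for 98.6% of genes, and length is that of 1 transcript per gene. Simulated reads with known changes were used to check the fit.

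Members and lists were chosen with earlier results of these data known. Named were the 5 genes with the smallest p in each direction of each comparison, those called in 3 or more comparisons or in an interaction, the 3 highest and lowest per kb, paralogs, and genes of chromosome 7 called with APOE; values of some single genes are not reported here, while counts are over all 72. Alternatives were other tests, filters, pseudocounts (0.1 and 1), scalings and covariates, a length and GC correction, and fits without libraries high in keratins (1 CPM), Ttr (100 CPM) or Alb, without APP/E4/Trem2ko replicates 8 and 16 (the last 2 chosen after seeing the data), and without each mouse.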

Additional observations from a re-analysis of the deposited data

Results flagged for a closer look

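For the 23 named genes, the highest or lowest mouse of a non-APP genotype (6 or 8 mice) was compared with its nearest neighbour in 92 groups of values, and 11 stood far from the others by Dixon's test at the 95% level. Chance alone gives about 1 in 20 for normally spread values in separate groups. The 92 groups hold genes that vary together in the same mice, so the 11 cannot be set against that rate. The E3/Trem2ko genotype held 4 of these: Rpl11 at 2.44 CPM (next 1.80), Rplp2 at 35.8 CPM (next 20.8) and Rps27a at 2.93 CPM (next 1.51) as highest values, and Rpl5 at 0.886 CPM (next 2.12) as lowest. In E3 mice Rps16 reached 2.09 CPM (next 1.45), Rps19 reached 8.16 CPM (next 5.37) and Rps27l reached 7.48 CPM (next 6.03). In E4 mice Rpl29 reached 76.1 CPM (next 57.8) and Rps4l reached 13.6 CPM (next 9.55), while Rplp0 had a low value of 29.1 CPM (next 48.4). In E4/Trem2ko mice Rplp2 reached 21.0 CPM (next 15.4).

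The change with loss of Trem2 differed between the APOE lines of APP mice for Rpl11 (log2 difference 0.86, limma adjusted p = 0.0377). No explanation was weighed.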

How the results depend on the processing

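Counts are of the 72 genes called, with the share of all genes called under the same setting in parentheses where the count moved most. In APP/E4 against APP/E3 mice (12), 1 was called without keratin libraries (15.9%) and 36 after the length and GC correction (22.7%), which turned Rps15 (0.031). In APP/E4/Trem2ko against APP/E3/Trem2ko (22) the counts were 5 with only those genotypes fitted (1.1%), 3 without Ttr-high libraries (0.568%), 38 with length and GC (4.78%), and 10 without replicates 8 and 16 (4.88%). In APP/E4/Trem2ko against APP/E4 (15) they were 8 with TMM (10.3%), 1 with only those genotypes (0.532%), 9 without keratin libraries (12.9%), 1 without Ttr-high (1.23%), 3 with length and GC (3.78%), 9 without Alb-high libraries (6.55%) and 4 without replicates 8 and 16 (8.34%). In E4 against E3 (1) they were 2 with edgeR, DESeq2, TMM or only those genotypes, 0 without keratin libraries (0.071%), 3 with the striatal covariate, 15 with length and GC (5.34%) and 3 without replicates 8 and 16. In E4/Trem2ko against E3/Trem2ko (1) they were 2 with edgeR, DESeq2, TMM, only those genotypes, without Ttr-high libraries, with the striatal covariate or without replicates 8 and 16, and 4 with length and GC (7.85%). Without keratin libraries 1 E4/Trem2ko mouse is left, so no count is given there. That fit also keeps 4 APP/E4 and 6 APP/E4/Trem2ko mice, with replicates 8 and 16 among the latter. In APP/E3/Trem2ko against APP/E3 (1) they were 0 with edgeR, DESeq2, only those genotypes, or without keratin, Ttr-high or Alb-high libraries, and in APP/E3/Trem2ko against E3/Trem2ko (0) 1 with length and GC. The interaction in APP mice (2) gave 1 with edgeR or without replicates 8 and 16, and 0 with only those genotypes (0.298%), without Ttr-high libraries (0.128%) or with length and GC (0.324%). The cause was not tested; fits without libraries hold fewer mice.

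With each mouse left out in turn the counts ran from 10 to 15, 13 to 23, 1 to 3, 1 to 4, 0 to 1, 5 to 20, 0 to 1 and 0 to 2 in APP/E4 against APP/E3, APP/E4/Trem2ko against APP/E3/Trem2ko, E4 against E3, E4/Trem2ko against E3/Trem2ko, APP/E3/Trem2ko against APP/E3, APP/E4/Trem2ko against APP/E4, E3/Trem2ko against E3 and the interaction in APP mice, and were 0 in the others. APP/E4/Trem2ko replicate 16 gave 13 and 5, its replicate 8 gave 14 and 9, and APP/E4 replicates 3 and 10 gave 6 and 8 against APP/E4/Trem2ko. The Rpl29 call in APP/E3/Trem2ko ended without 14 of 28 mice. Of 364 alternative values of 26 named calls, 291 stayed called, 72 lost the call and 1 turned. Those of Rpl21 (APP/E4/Trem2ko against APP/E3/Trem2ko) and Rpl36a (APP/E4 against APP/E3) held in all 14 alternatives. No paired analysis was possible because replicate numbers follow accession order and pair no mice.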
